A study of Rattus norvegicus with 8 samples.

Results

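The enzymes of glycolysis, from hexokinase to lactate dehydrogenase, were followed in rat astrocytes exposed to melanoma. They were taken from the gene count table by symbol: Hk1, Gpi, Aldoa, Aldoc, Tpi1, Gapdh, Pgk1, Eno1, Pkm and Ldha, which are 10 of 28546 gene entries. All 10 were in the table and all 10 passed the filter on low counts, although Tpi1 did so with almost no reads. The study asked how astrocytes respond to melanoma with and without amyloid beta, a peptide cut from the amyloid precursor protein (APP). In the sh-APP group (3 libraries), astrocytes from Sprague Dawley rat pups met 12-273 BM melanoma cells that carried a short hairpin against APP. In the anti-Abeta group (3 libraries) an antibody against amyloid beta was added, and the hairpin of the melanoma cells was a scrambled one. The control group (2 libraries) had the scrambled hairpin and no antibody against amyloid beta. The names of the control and sh-APP libraries carry the word control where the others name the antibody. Those names do not say whether a control antibody was added. All groups therefore shared the melanoma exposure, and no astrocytes without it were analysed here. The labels name the exposure as a co-culture in one field and as 24 h in medium from melanoma cells in another. They also speak of medium from astrocytes put on melanoma cells. It is therefore not settled which applied, or whether melanoma cells were present. The sh-APP libraries carry the name of 1 hairpin. The sources used here give neither the age of the pups nor whether replicate libraries are separate cultures.

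Glycolysis turns glucose into pyruvate in the cytosol. A preparatory stage phosphorylates glucose and splits it into triose phosphates, and a payoff stage oxidises these and returns ATP. Lactate dehydrogenase then converts pyruvate to lactate, while pyruvate that enters mitochondria feeds the citric acid cycle. Astrocytes are known for high glycolytic activity and for releasing lactate that neurons can use, and they express aldolase C strongly enough for it to serve as an astrocyte marker.

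Total counts ran from 34250464 to 47831595 per library, and levels are given as CPM, counts brought to a common library total, after scaling by TMM factors, which correct for differences in RNA composition. Of 12 astrocyte markers, 12 were in the table, and their summed level was 19258 to 22242 CPM in sh-APP, 15475 to 16874 CPM in anti-Abeta and 17418 to 17989 CPM in control libraries. Against control, 8 of the 12 rose and 1, Gja1, fell in sh-APP, beside 25.8% and 27.9% of all tested genes. In anti-Abeta 4 rose and 3 fell (Aqp4, Slc1a3 and Gja1), beside 12.7% and 16.6% of all tested genes. The same shares belong beside the other marker counts below. Gfap, the astrocyte filament protein, averaged 6532 ± 893 CPM in sh-APP, 3728 ± 295 CPM in anti-Abeta and 2911 ± 19.4 CPM in control libraries (SD). Gjb6, a connexin of mature astrocytes, stayed under 1 CPM in every library. Several other marker lists moved with the groups. The summed level of 22 proliferation genes was 560.0 to 716 CPM in sh-APP, 974 to 1186 CPM in anti-Abeta and 1133 to 1239 CPM in control libraries. Neuronal markers summed to 157 to 167 CPM in sh-APP, 231 to 295 CPM in anti-Abeta and 337 to 362 CPM in control libraries, most of it from Map2 and Snap25. Not all of them fell: of 12 tested in sh-APP against control, 4 fell (Snap25, Map2, Elavl4 and Nefl) and 3 rose (Tubb3, Rbfox3 and Stmn2). In anti-Abeta against control 3 fell (Snap25, Map2 and Nefl) and 0 rose. There 7 of the 12 had a fold change above 0, called or not, with a median of 0.18 on the log2 scale. The sum of the oligodendrocyte lineage list was higher than control in both arms, at 3150 to 3307 CPM in sh-APP, 3150 to 3495 CPM in anti-Abeta and 2673 to 2785 CPM in control libraries. Most of that sum came from Olig1. Of the list's 10 tested genes sh-APP had Olig1 higher and 2 lower than control, and anti-Abeta had 3 higher, Olig1 among them, and 1 lower. Their median log2 fold change against control was 0.014 in sh-APP and 0.28 in anti-Abeta. Pericyte, smooth muscle and fibroblast markers summed to 46.6 to 48.7 CPM in sh-APP, 44.2 to 53.5 CPM in anti-Abeta and 37.8 to 41.6 CPM in control libraries, and endothelial markers to 10.4 to 11.9 CPM in sh-APP, 9.41 to 10.7 CPM in anti-Abeta and 7.78 to 8.78 CPM in control libraries, with Cldn5 at 0. All 9 microglia and macrophage markers in the table were under 1 CPM in every library, and Cx3cr1 had no count. The melanocyte list summed to 2280 to 2483 CPM in sh-APP, 3578 to 3866 CPM in anti-Abeta and 4369 to 4450 CPM in control libraries. Almost all of that came from Gpnmb, a lysosomal glycoprotein also made by other cells, and 5 of its 10 genes were under 1 CPM in every library, with Slc45a2 at 0. The part of these shifts in the enzyme levels was not tested. In whole cultures, fewer cells of a kind and less RNA per cell cannot be told apart.

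Hexokinase, glucose phosphate isomerase, both aldolases, glyceraldehyde phosphate dehydrogenase, enolase and pyruvate kinase were higher in sh-APP than in control astrocytes, by 1.27-fold to 1.86-fold. By the quasi-likelihood test of edgeR, with p-values adjusted over 14445 genes by the Benjamini-Hochberg method, 7 of the 10 enzymes rose and 0 fell. Many genes changed in this comparison: 53.7% of all tested genes were called, made up of 25.8% higher and 27.9% lower. At an unadjusted p under 0.05 the count was likewise 7 higher and 0 lower, while DESeq2 called 7 higher and 1 lower, Pgk1. In every sh-APP library 7 enzymes were above both controls, as were 35.7% of all genes, and Pgk1 was below both, as were 35% of all genes. Tpi1 was also below both, but on 6 to 16 reads that give no usable level. In anti-Abeta against control 6 of 10 rose and 0 fell, against 12.7% of all tested genes called higher and 29.2% called either way. Without control replicate 1 this count was 0 of 10. At an unadjusted p under 0.05 this was 7 higher and 1 lower, and DESeq2 called 6 higher and 1 lower. In every anti-Abeta library 7 enzymes were above both controls, as were 27.9% of all genes, and Pgk1 and the near-empty Tpi1 were below both, as were 27% of all genes. Set directly against anti-Abeta, sh-APP had 6 of 10 enzymes higher and 0 lower, both by edgeR and by DESeq2, against 10.1% of all tested genes called higher and 26.1% called either way. The same 6 were above every anti-Abeta library in every sh-APP library, as were 19.2% of all genes. The median log2 fold change of the 10 enzymes was 0.57 in sh-APP against control, 0.29 in anti-Abeta against control and 0.27 in sh-APP against anti-Abeta, beside medians of 0.027, 0.027 and -0.0092 over all tested genes. Without Tpi1 the medians of the other 9 enzymes were 0.60, 0.29 and 0.29 in these comparisons. The sh-APP and anti-Abeta comparisons use the same 2 control libraries, so they are not independent of each other.

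**Figure D1:**
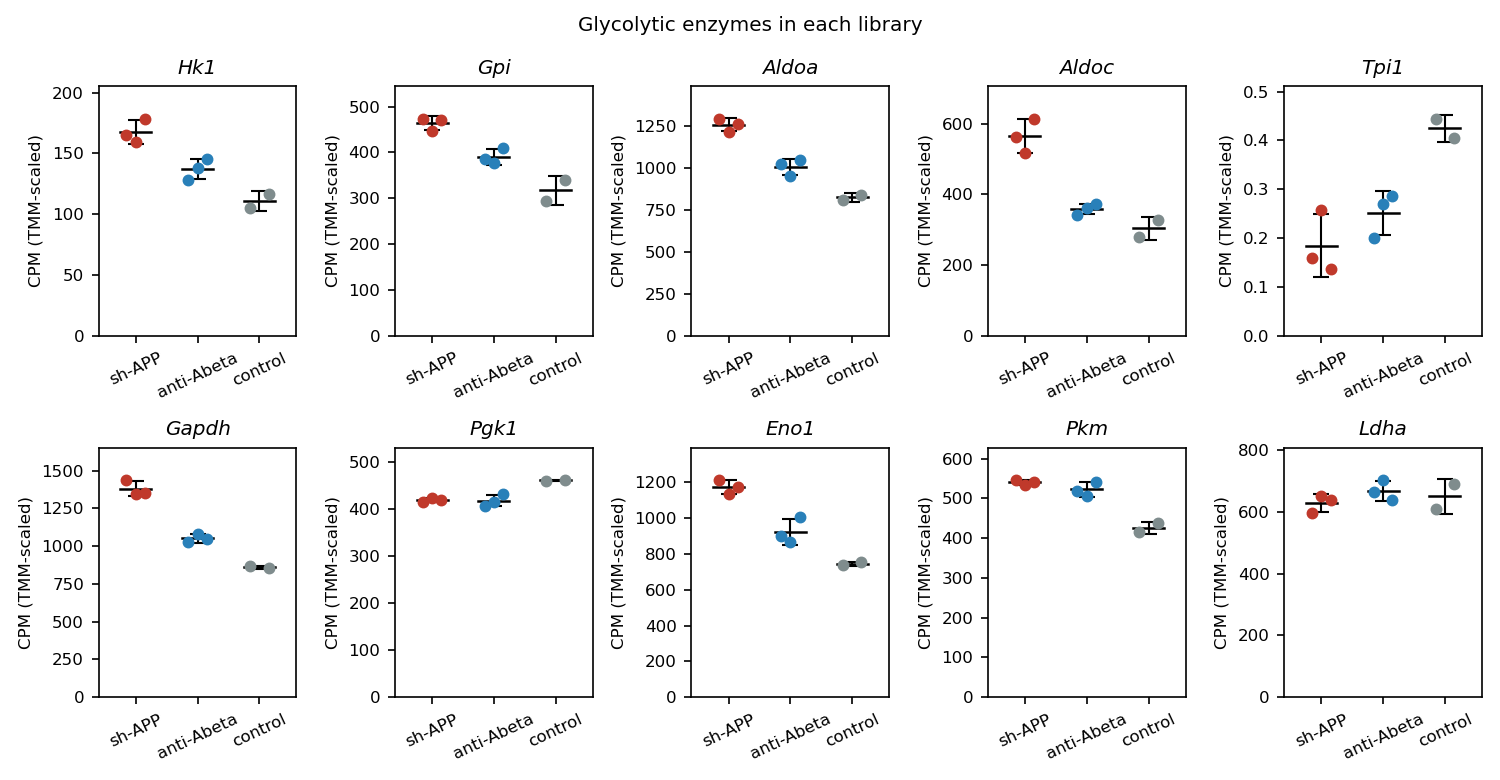
Level of each glycolytic enzyme in each library, in CPM after TMM scaling, on axes that start at 0. Points are libraries, the line is the group mean and the bar 1 SD (n = 3 sh-APP, 3 anti-Abeta, 2 control). In Hk1, Gpi, Aldoa, Aldoc, Gapdh and Eno1 every sh-APP library is above every anti-Abeta library and these are above both control libraries, while Pgk1 is lower in both arms, Ldha overlaps and Tpi1 stays under 0.5 CPM.

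The promoters of these genes are shown for 3 enzymes because they stand for the contrast among them: Aldoc rose the most of the enzymes in sh-APP against control, Gapdh rose in all 3 comparisons, and Ldha passed in none. The sequences are from RefSeq on the GRCr8 assembly, which is later than the rn6 build named for the counts, and cover 250 bases before to 50 bases after the gene start, 5′ to 3′ on the gene's strand. Capitals mark ACGTG or GCGTG on either strand, so CACGT and CACGC are the same letters read from the other strand. ACGTG and GCGTG are the core letters of the hypoxia response element, to which the factor Hif1a binds, and ACGTG also lies inside CACGTG, the E-box read by Usf and Myc proteins. Aldoc lies at chr10:63715294-63715593 on the plus strand, Gapdh at chr4:159652418-159652717 on the minus strand and Ldha at chr1:106507842-106508141 on the plus strand.
Aldoc: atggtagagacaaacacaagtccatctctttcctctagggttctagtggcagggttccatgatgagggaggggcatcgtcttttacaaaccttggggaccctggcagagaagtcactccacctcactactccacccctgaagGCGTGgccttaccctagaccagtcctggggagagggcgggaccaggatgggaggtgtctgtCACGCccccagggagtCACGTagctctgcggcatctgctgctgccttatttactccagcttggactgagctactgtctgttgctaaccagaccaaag
Gapdh: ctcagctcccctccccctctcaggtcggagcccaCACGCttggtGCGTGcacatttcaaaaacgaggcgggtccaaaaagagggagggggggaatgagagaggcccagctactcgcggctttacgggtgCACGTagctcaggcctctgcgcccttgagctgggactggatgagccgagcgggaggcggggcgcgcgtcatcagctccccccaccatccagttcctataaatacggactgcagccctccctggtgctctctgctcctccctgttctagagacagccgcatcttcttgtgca
Ldha: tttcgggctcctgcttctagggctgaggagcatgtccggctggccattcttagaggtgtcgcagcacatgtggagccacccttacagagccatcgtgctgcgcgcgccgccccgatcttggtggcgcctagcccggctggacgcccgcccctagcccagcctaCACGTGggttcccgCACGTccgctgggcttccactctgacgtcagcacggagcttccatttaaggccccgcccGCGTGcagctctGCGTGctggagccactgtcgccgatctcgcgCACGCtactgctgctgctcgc
Ldha carried 3 of ACGTG and 3 of GCGTG, its CACGTG counting once on each strand, and Aldoc and Gapdh each carried 1 of ACGTG and 2 of GCGTG. Of the 9 enzymes with an entry (Pgk1 has none in the table used), 5 held at least 1 such match: Gpi, Aldoc, Gapdh, Eno1 and Ldha. The share over all 27457 promoters of the same length was 42.9%. The full CACGTG was found in 1 of the 9, Ldha, and in 6.65% of all promoters. GGGCGG, the letters of a GC box, read by Sp1, was in 5 of the 9 and in 34.9% of all promoters. TATAAA was in 1, Gapdh, and in 14.3% of all promoters. Matching letters are a description of the window and do not show binding.

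Hk1, the brain's main hexokinase, commits glucose to the cell by phosphorylating it. It measured 165, 159 and 179 CPM in the sh-APP libraries, 129, 138 and 145 CPM in the anti-Abeta libraries, and 105 and 117 CPM in the control libraries. The 3 groups did not overlap, and sh-APP libraries were the highest. Hk1 rose by 0.60 ± 0.085 on the log2 scale (SE) in sh-APP against control (adjusted p = 1.02e-04) and by 0.31 ± 0.085 in anti-Abeta against control (adjusted p = 0.0193). It was also higher in sh-APP than in anti-Abeta, by 0.29 ± 0.075 (adjusted p = 0.0152), a call that missed the threshold without sh-APP replicate 3 (adjusted p = 0.0714) or without anti-Abeta replicate 1 (0.0592).

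Gpi interconverts glucose 6-phosphate and fructose 6-phosphate, the branch point towards the pentose phosphate pathway. Its level was 474, 448 and 472 CPM in the sh-APP libraries, 385, 376 and 411 CPM in the anti-Abeta libraries, and 295 and 339.7 CPM in the control libraries. Again each group kept its own range, although the control libraries lay further apart from each other than the sh-APP libraries did. The log2 fold change was 0.55 ± 0.080 in sh-APP against control (adjusted p = 1.10e-04), 0.30 ± 0.079 in anti-Abeta against control (adjusted p = 0.0158) and 0.25 ± 0.070 in sh-APP against anti-Abeta (adjusted p = 0.0217). This last call missed the threshold without sh-APP replicate 1 (adjusted p = 0.0809), sh-APP replicate 3 (0.0738) or anti-Abeta replicate 1 (0.0642).

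The aldolases split fructose 1,6-bisphosphate into triose phosphates. Aldoa, the widely expressed form, measured 1294, 1216 and 1264 CPM in the sh-APP libraries, 1021, 954 and 1045 CPM in the anti-Abeta libraries, and 807 and 841 CPM in the control libraries. All 3 groups were separate, in the same order as for Hk1 and Gpi. Its log2 fold change was 0.61 ± 0.071 in sh-APP against control (adjusted p = 2.57e-05), 0.29 ± 0.071 in anti-Abeta against control (adjusted p = 0.0116) and 0.32 ± 0.063 in sh-APP against anti-Abeta (adjusted p = 0.00365).

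Aldoc, the brain aldolase enriched in astrocytes, measured 563, 518 and 615 CPM in the sh-APP libraries, 342, 361 and 372 CPM in the anti-Abeta libraries, and 280.0 and 327 CPM in the control libraries. The lowest sh-APP library was well above the highest anti-Abeta library, whereas anti-Abeta and control libraries lay close to each other without overlapping. Aldoc was 1.86-fold higher in sh-APP than in control (log2 0.90 ± 0.093, adjusted p = 1.25e-05) and 1.58-fold higher than in anti-Abeta (log2 0.66 ± 0.081, adjusted p = 6.58e-04). In anti-Abeta against control the log2 difference was 0.24 ± 0.091 and missed the threshold (adjusted p = 0.0665, 95% interval 0.042 to 0.44). It passed with upper-quartile factors (adjusted p = 0.0315), with library totals alone (0.00680) and without the low-count filter (0.0497). Without control replicate 1 it was 0.12 (adjusted p = 0.504), and it passed in none of the fits that left out 1 library.

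Because the ratio of Aldoc to Aldoa counts within a library needs no scaling between libraries, it was taken as a separate measure. It was 0.435, 0.425 and 0.486 in the sh-APP libraries, 0.335, 0.379 and 0.356 in the anti-Abeta libraries and 0.347 and 0.389 in the control libraries. Every sh-APP library lay above all 5 others, and anti-Abeta and control libraries overlapped. On the log2 scale the ratio differed by 0.29 between sh-APP and control (exact permutation test, two-sided, p = 0.2, adjusted p = 0.3), by 0.33 between sh-APP and anti-Abeta (exact p = 0.1, adjusted p = 0.3) and by -0.044 between anti-Abeta and control (exact p = 0.8, adjusted p = 0.8). With so few libraries the smallest p the exact test can give is 0.2 against control and 0.1 between the arms, so no difference of this ratio could pass. The anti-Abeta difference turned positive without anti-Abeta replicate 1 (5.49e-04) or control replicate 2 (0.038).

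**Figure D2:**
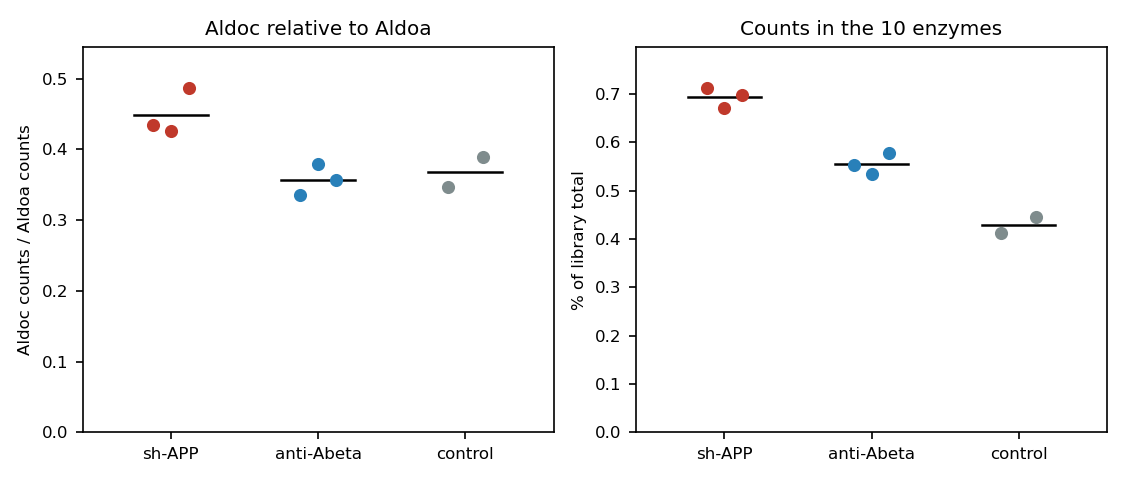
Left, Aldoc counts divided by Aldoa counts in each library; right, counts of the 10 glycolytic enzymes as a percentage of the library total. Points are libraries and lines group means (n = 3 sh-APP, 3 anti-Abeta, 2 control). Ratios are 0.425 to 0.486 in sh-APP and 0.335 to 0.389 in the other libraries, and shares are 0.670 to 0.712% in sh-APP, 0.533 to 0.578% in anti-Abeta and 0.412 to 0.445% in control libraries.

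Tpi1, which interconverts the triose phosphates made by aldolase, had 7, 12 and 6 reads in the sh-APP libraries, 7, 11 and 14 in the anti-Abeta libraries and 16 and 15 in the control libraries. The row of an enzyme that every glycolysing cell needs was thus nearly empty. It passed the filter through 5 of 8 libraries, both control libraries among them. Its log2 fold change was -1.18 ± 0.63 in sh-APP against control (adjusted p = 0.137), -0.74 ± 0.63 in anti-Abeta against control (adjusted p = 0.404) and -0.44 ± 0.59 in sh-APP against anti-Abeta (adjusted p = 0.633). The gene table of GRCr8 names 5 further loci after Tpi1, and there Tpi1 overlaps Spsb2. Such names are not particular to Tpi1: there are 34 for Eno1, 31 for Ldha, 20 for Pkm and 9 each for Aldoa and Pgk1. Whether reads of any of these enzymes were lost to such copies was not tested. The counts of Tpi1 give no usable level of the enzyme.

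Gapdh oxidises glyceraldehyde 3-phosphate and is often used as a reference gene on the assumption that it stays level. It measured 1438, 1348 and 1354 CPM in the sh-APP libraries, 1028, 1083 and 1047 CPM in the anti-Abeta libraries, and 868 and 853 CPM in the control libraries. The groups were well apart, with the 2 control libraries close together and lowest. Gapdh was 1.60-fold higher in sh-APP than in control (log2 0.68 ± 0.068, adjusted p = 1.01e-05), and the log2 fold change was 0.29 ± 0.068 in anti-Abeta against control (adjusted p = 0.00945) and 0.39 ± 0.060 in sh-APP against anti-Abeta (adjusted p = 0.00123). The gene table of GRCr8 names 91 loci after Gapdh, 81 of them as pseudogenes. The count table holds 1 of these, Gapdh-ps2, with 52 to 96 reads per library against at least 31218 for Gapdh.

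Pgk1, which makes the first ATP of the payoff stage, was not called by edgeR in any comparison. Its level was 415, 423 and 419 CPM in the sh-APP libraries, 407, 416 and 431 CPM in the anti-Abeta libraries, and 460.2 and 462 CPM in the control libraries. The 2 control libraries were the highest of the 8, and both arms lay below them with overlapping ranges. The log2 difference was -0.14 ± 0.064 in sh-APP against control (adjusted p = 0.0907, 95% interval -0.28 to 0.0022) and -0.14 ± 0.064 in anti-Abeta against control (adjusted p = 0.117, 95% interval -0.28 to -0.0019). DESeq2 called both lower (adjusted p = 0.0439 and 0.0468). With library totals alone the differences were 0.067 and 0.0097, so the direction of Pgk1 depends on the scaling. Between sh-APP and anti-Abeta the log2 difference was 0.0041 ± 0.057 (95% interval -0.12 to 0.13, adjusted p = 0.969).

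Eno1, the main enolase outside neurons and muscle, forms phosphoenolpyruvate. It measured 1212, 1132 and 1171 CPM in the sh-APP libraries, 901, 864 and 1006 CPM in the anti-Abeta libraries, and 738 and 753 CPM in the control libraries. All sh-APP libraries were above all anti-Abeta libraries, and these above both controls, with anti-Abeta replicate 3 the highest of its group. The log2 fold change was 0.65 ± 0.079 in sh-APP against control (adjusted p = 3.19e-05), 0.31 ± 0.078 in anti-Abeta against control (adjusted p = 0.0133) and 0.34 ± 0.070 in sh-APP against anti-Abeta (adjusted p = 0.00441). Eno2, the neuronal enolase, had at most 6 reads in a library and was not tested.

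Pkm, the pyruvate kinase that gives the second ATP step, measured 546, 533 and 542 CPM in the sh-APP libraries, 519, 507 and 542 CPM in the anti-Abeta libraries, and 415 and 437 CPM in the control libraries. Both arms were above the control libraries and overlapped each other. Pkm rose by 0.34 ± 0.067 on the log2 scale in sh-APP against control (adjusted p = 9.19e-04) and by 0.29 ± 0.067 in anti-Abeta against control (adjusted p = 0.00853). Set against each other the arms differed by 0.048 ± 0.059 (adjusted p = 0.598, 95% interval -0.081 to 0.18). The count table holds 1 entry for the gene, so its M1 and M2 splice forms were not separated.

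Ldha, the lactate dehydrogenase subunit that favours lactate formation, measured 596, 650.3 and 637 CPM in the sh-APP libraries, 664, 703 and 637 CPM in the anti-Abeta libraries, and 609.8 and 690.5 CPM in the control libraries. The 3 groups overlapped, and the 2 control libraries alone spanned most of the range. The log2 difference was -0.050 ± 0.079 in sh-APP against control (adjusted p = 0.623, 95% interval -0.22 to 0.12), 0.039 ± 0.079 in anti-Abeta against control (adjusted p = 0.747, 95% interval -0.13 to 0.21) and -0.089 ± 0.070 in sh-APP against anti-Abeta (adjusted p = 0.394, 95% interval -0.24 to 0.064). Over the alternatives the value against control ran from -0.13 to 0.15 in sh-APP, where its sign turned with the scaling and with the library left out, and from -0.059 to 0.19 in anti-Abeta, where it turned only without anti-Abeta replicate 2 or control replicate 1. Ldhb, the partner subunit, averaged 1189 ± 58.6 CPM in sh-APP, 1137 ± 74.1 CPM in anti-Abeta and 995 ± 34.9 CPM in control libraries (SD). It rose by 0.26 ± 0.078 in sh-APP against control (adjusted p = 0.0147), a call that missed the threshold without sh-APP replicate 1 (adjusted p = 0.0639) or control replicate 2 (0.0790), and had 0.19 ± 0.078 in anti-Abeta (adjusted p = 0.0841).

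**Figure D3:**
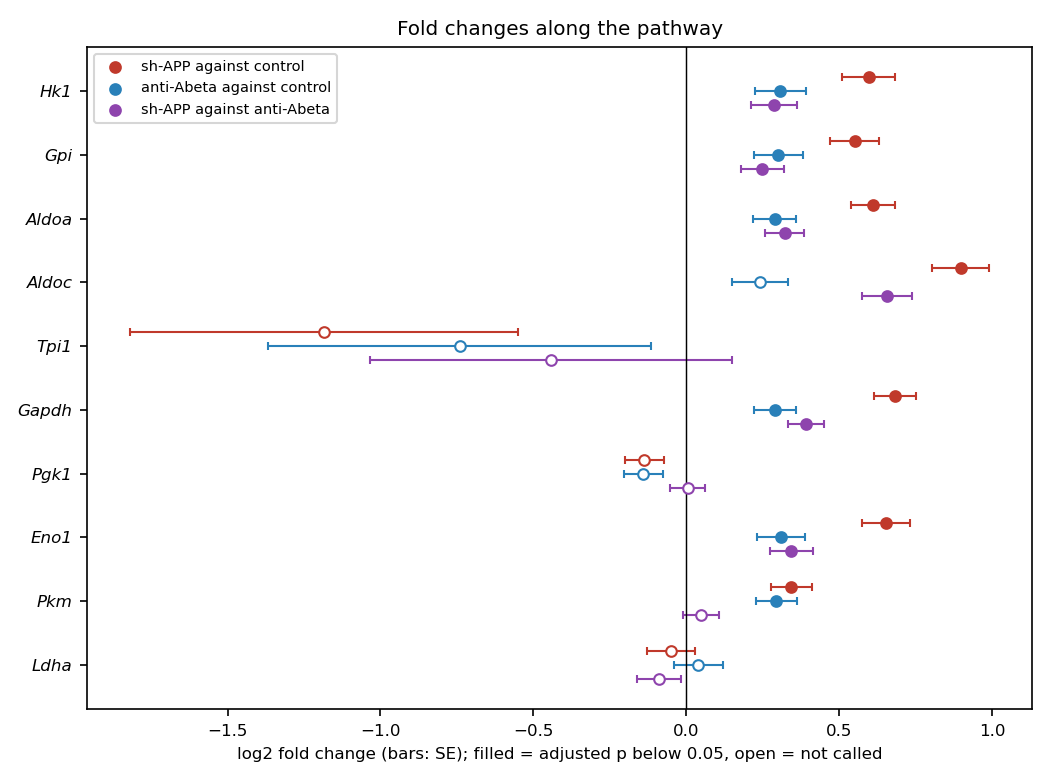
Log2 fold change of each glycolytic enzyme in the 3 comparisons, in pathway order from top to bottom, with bars of 1 SE from the edgeR fit (n = 3 sh-APP, 3 anti-Abeta, 2 control). Filled points have an adjusted p below 0.05. The sh-APP values of 6 enzymes lie between 0.55 and 0.90, Pkm lies at 0.34 in sh-APP and 0.29 in anti-Abeta, Pgk1 and Ldha lie near 0, and Tpi1 has bars wider than those of all the others.

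Summed over the 10 enzymes the level was 6595 ± 147 CPM in sh-APP, 5479 ± 137 CPM in anti-Abeta and 4699 ± 171 CPM in control libraries (SD, n = 3, 3 and 2). As a share of the raw library total, without TMM factors, the enzymes held 0.712, 0.670 and 0.697% in the sh-APP libraries. They held 0.552, 0.533 and 0.578% in the anti-Abeta libraries and 0.412 and 0.445% in the control libraries. Scaling by library totals alone moved the median log2 fold change of all tested genes against control up by 0.20 in sh-APP and 0.15 in anti-Abeta. The share carries that shift too. The groups did not overlap. The mean share differed by 0.264 percentage points between sh-APP and control (exact permutation test, two-sided, p = 0.2), by 0.126 between anti-Abeta and control (exact p = 0.2) and by 0.138 between sh-APP and anti-Abeta (exact p = 0.1), each with an adjusted p of 0.2. These are the smallest p-values that this number of libraries allows.

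The 7 calls of sh-APP against control held under each of the other scalings, filters and tools, and without any 1 library, with an adjusted p of at most 0.0141. The 6 calls of anti-Abeta against control were less secure. Without control replicate 1, 0 of 10 enzymes passed: the adjusted p became 0.212 for Hk1, 0.202 for Gpi, 0.119 for Aldoa, 0.0803 for Gapdh, 0.118 for Eno1 and 0.103 for Pkm, and 464 genes in all were called, against 4223 with both controls. Without anti-Abeta replicate 3, Hk1 (0.0651), Gpi (0.0567) and Eno1 (0.0512) missed the threshold, and without control replicate 2, Gapdh (0.0597) and Eno1 (0.0580) did. The fold changes of these 6 enzymes stayed positive in all of these fits, between 0.19 and 0.46 on the log2 scale over the alternatives.

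For each enzyme the gene with the most similar pattern over the 8 libraries was looked up among 8837 genes with a mean of at least 10 CPM, by Pearson's r of log2 CPM. Aldoc was closest to Slc2a10, a member of the glucose transporter family (r = 0.999), Gpi to Grn, which encodes progranulin (0.997), and Gapdh to Csnk1g2, a casein kinase (0.997). Eno1 was closest to Pink1, a mitochondrial kinase (0.997), and Aldoa to Gm2a, a lysosomal activator protein (0.997). Ldha had a looser match, with r of 0.891 to Cybrd1, a ferric reductase. All points share the same 8 libraries in 3 groups, so these values only describe and carry no test.

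The regulated steps that are not among the 10 enzymes are the phosphofructokinases. Of 12 tested isoenzymes of the same pathway 4 rose in sh-APP against control, Pfkl, Pfkm, Pfkp and Ldhb, and the other 8 did not pass, with a median log2 fold change of 0.23 over the 12. Over all tested genes 25.8% were called higher. With library totals alone 7 of the 12 rose, and without control replicate 1 there were 3. Pfkl averaged 19.6 ± 1.19 CPM in sh-APP, 12.9 ± 0.919 CPM in anti-Abeta and 9.80 ± 0.844 CPM in control libraries (SD), a log2 fold change of 0.998 ± 0.13 in sh-APP against control (adjusted p = 5.26e-05) and 0.60 ± 0.11 in sh-APP against anti-Abeta (adjusted p = 0.00302). Pfkm averaged 282 ± 17.8 CPM in sh-APP, 206 ± 7.49 CPM in anti-Abeta and 179 ± 8.27 CPM in control libraries and rose by 0.65 ± 0.078 in sh-APP against control (adjusted p = 2.85e-05). Pfkp, a platelet-type form also made in brain, rose by 0.23 ± 0.079 in sh-APP (adjusted p = 0.0288) and by 0.34 ± 0.080 in anti-Abeta (adjusted p = 0.0103, and 0.0768 without control replicate 1 or 0.0587 without control replicate 2), and its sh-APP call missed the threshold in 5 of the 8 fits without 1 library (adjusted p up to 0.0971). Pgam1, the phosphoglycerate mutase between Pgk1 and Eno1, averaged 689 ± 16.8 CPM in sh-APP, 715 ± 22.5 CPM in anti-Abeta and 719 ± 12.0 CPM in control libraries and was not called, with a log2 difference of -0.063 ± 0.066 in sh-APP against control (adjusted p = 0.451, 95% interval -0.21 to 0.081) that became 0.14 with library totals alone. Hk2, the inducible hexokinase, averaged 11.5 ± 1.57 CPM in sh-APP, 9.39 ± 0.6 CPM in anti-Abeta and 10.7 ± 0.205 CPM in control libraries and was not called in any comparison.

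Pfkfb3, which makes the phosphofructokinase activator fructose 2,6-bisphosphate, averaged 193 ± 19.2 CPM in sh-APP, 135 ± 10.4 CPM in anti-Abeta and 133 ± 8.83 CPM in control libraries (SD). It rose by 0.53 ± 0.098 in sh-APP against control (adjusted p = 6.27e-04) and by 0.51 ± 0.087 against anti-Abeta (adjusted p = 0.00185), while anti-Abeta against control gave 0.019 ± 0.097 (adjusted p = 0.906). Pfkfb2, a related enzyme, fell to 6.66 ± 0.24 CPM in sh-APP, against 10.3 ± 0.425 CPM in control libraries (adjusted p = 0.0053).

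Among the glucose and lactate carriers sh-APP had 5 of 13 higher than control and 4 lower, beside 25.8% and 27.9% of all tested genes. Slc2a1, the GLUT1 glucose transporter, rose to 51.3 ± 5.89 CPM in sh-APP, against 26.4 ± 0.564 CPM in control libraries (log2 0.96 ± 0.14, adjusted p = 1.14e-04), and was higher than in anti-Abeta by 0.70 ± 0.12 (adjusted p = 0.002). Bsg, the chaperone that brings lactate carriers to the membrane, rose by 0.55 ± 0.069 (adjusted p = 4.07e-05). Slc16a1, the lactate carrier MCT1, instead fell to 332 ± 45.5 CPM in sh-APP, against 601 ± 114 CPM in control libraries (log2 -0.85 ± 0.20, adjusted p = 0.00359). Its libraries were uneven, and without control replicate 2 it missed the threshold (adjusted p = 0.0700). Slc2a13, a myo-inositol carrier of the same family as GLUT1, fell by 0.96 on the log2 scale (adjusted p = 1.48e-05). In anti-Abeta against control 3 of the 13 rose and 1 fell, and 0 passed without control replicate 1.

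Downstream of the enzymes, genes for the entry of pyruvate into mitochondria were more often called lower than higher. Of 15 tested, 8 fell and 2 rose in sh-APP against control, and 8 fell and 1 rose in anti-Abeta against control, where 27.9% and 16.6% of all tested genes were called lower. Scaling by library totals alone gave 6 lower and 4 higher in sh-APP and 4 lower and 2 higher in anti-Abeta, and without control replicate 1 none of the 15 passed in anti-Abeta. Dld, a subunit of the pyruvate dehydrogenase complex, averaged 244 ± 20.2 CPM in sh-APP, 387 ± 73.0 CPM in anti-Abeta and 539 ± 16.5 CPM in control libraries (SD) and fell by 1.14 on the log2 scale in sh-APP against control (SE 0.12, adjusted p = 1.56e-05). Pdhb, another subunit, had -0.60 ± 0.075 in sh-APP (adjusted p = 4.20e-05) and -0.38 ± 0.076 in anti-Abeta (adjusted p = 0.00522, and 0.0660 without control replicate 1), and Mpc1, of the mitochondrial pyruvate carrier, had -0.62 ± 0.12 in sh-APP (adjusted p = 0.001). Regulators of the complex moved both ways in sh-APP: Pdp1, a phosphatase that switches it on, had -0.59 ± 0.093 (adjusted p = 1.95e-04), and of the kinases that switch it off Pdk3 had -0.61 ± 0.084 (adjusted p = 7.77e-05) and Pdk2 had 0.60 ± 0.088 (adjusted p = 1.24e-04). Pdk1, a further such kinase, had -0.25 ± 0.099 in sh-APP (adjusted p = 0.0494), a call that did not hold in any fit without 1 library (adjusted p 0.0561 to 0.291). Pc, which carboxylates pyruvate to oxaloacetate, went the other way: it rose by 0.95 ± 0.14 in sh-APP against control (adjusted p = 1.09e-04) and by 0.62 ± 0.12 against anti-Abeta (adjusted p = 0.00351). In sh-APP against control, 5 of 14 citric acid cycle genes rose and 4 fell, beside 25.8% and 27.9% of all tested genes. Scaling by library totals changed this to 10 and 3, and leaving out control replicate 1 to 2 and 4. On the log2 scale Mdh2, a malate dehydrogenase, was at 0.41 ± 0.066 (adjusted p = 2.24e-04) and Sucla2, a succinyl-CoA ligase subunit, at -1.03 ± 0.085 (adjusted p = 4.77e-06).

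**Figure D4:**
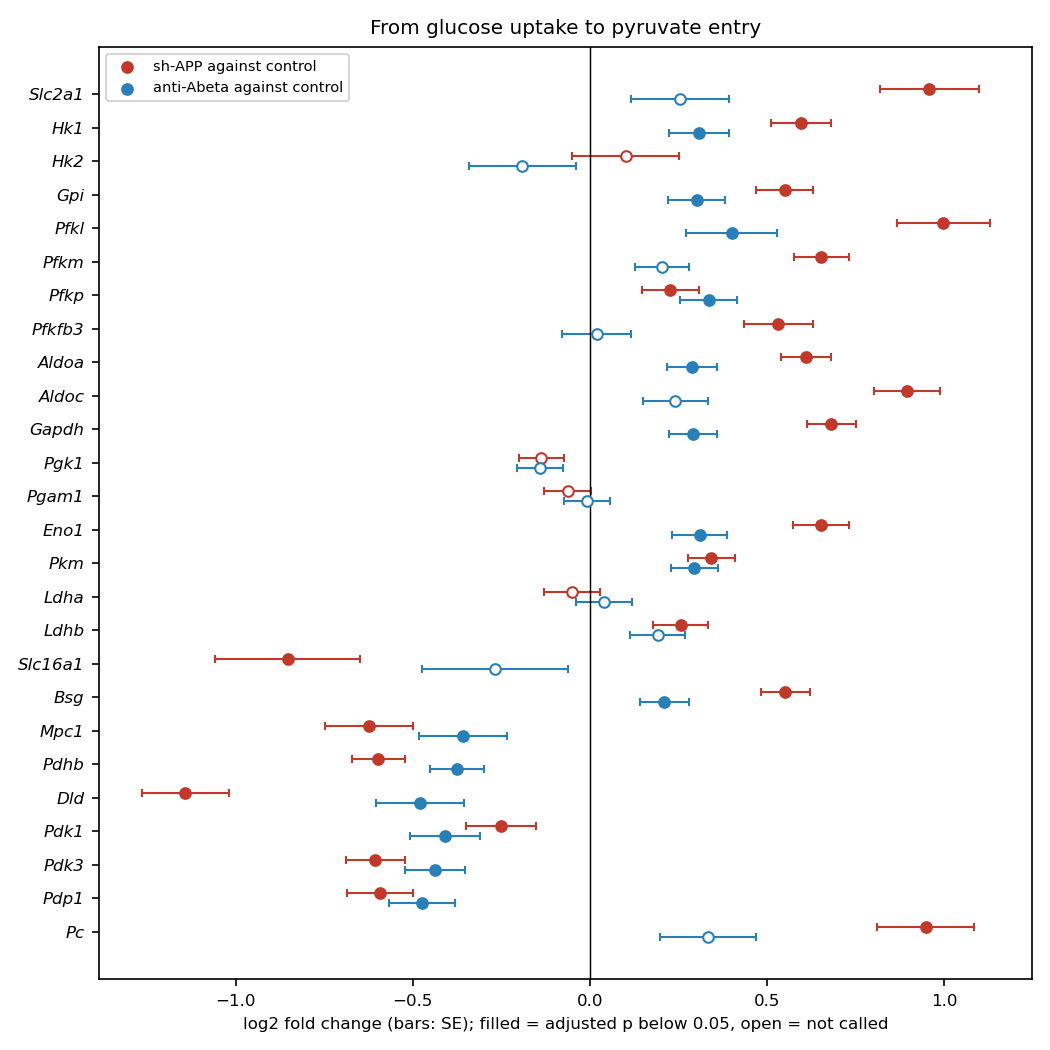
Log2 fold change against control, with bars of 1 SE from the edgeR fit (n = 3 sh-APP, 3 anti-Abeta, 2 control), for genes ordered from glucose uptake to pyruvate entry. Filled points have an adjusted p below 0.05. The genes are a selection, and some were picked for a small p in the same fit. Tpi1 is not drawn, nor are several of the 15 tested genes of pyruvate entry, among them Pdk2, called higher in both arms. Of the genes drawn, most glycolytic steps lie right of 0 and most genes of pyruvate entry left of 0. Pgk1, Pgam1 and Ldha lie near 0, and Dld is lowest at -1.14 in sh-APP.

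Side branches of glycolysis gave mixed counts, to be read beside the 25.8% of all tested genes called higher and 27.9% called lower in sh-APP, and 12.7% and 16.6% in anti-Abeta. Against control, sh-APP had 4 of 7 pentose phosphate genes higher and 2 lower. Pgls, a lactonase of the oxidative branch, averaged 127 ± 8.78 CPM in sh-APP, 104 ± 15.1 CPM in anti-Abeta and 71.0 ± 4.04 CPM in control libraries (SD) and rose by 0.84 ± 0.11 (adjusted p = 6.21e-05), and Tkt, a transketolase, rose by 0.57 ± 0.074 (adjusted p = 5.31e-05). Rpe, an epimerase of the non-oxidative branch, had -1.29 ± 0.18 (adjusted p = 9.15e-05). In the gene table of GRCr8, Hk1, Aldoa, Pkm, Pfkm, Pfkfb2, Pfkfb3, Bsg, Pc, Pdk2, Mdh2, Pgls, Rpe, Hif1a, Pck2, Slc2a10 and Slc25a11 each overlap another gene. So do the markers Snap25 and Rbfox3. Strand was not used to tell the reads of these genes apart here. In sh-APP, 7 of 19 glycogen genes rose and 5 fell, or 7 and 3 when scaled by library totals: Pygb, the brain glycogen phosphorylase, rose by 0.64 ± 0.083 (adjusted p = 4.82e-05), while Ugp2 (log2 -0.997 ± 0.11, adjusted p = 1.94e-05), which supplies the glucose donor, and Gyg1, the glycogen primer (log2 -0.78 ± 0.081, adjusted p = 1.29e-05), fell. In anti-Abeta against control 2 of 7 pentose phosphate genes rose and 1 fell, against 4 and 0 when scaled by library totals and 0 and 0 without control replicate 1. Of the 19 glycogen genes 3 rose and 4 fell there, against 5 and 2 when scaled by library totals and 0 and 1 without control replicate 1.

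Glycolytic genes are classical targets of the hypoxia factor Hif1a, so other targets of that factor and the regulators themselves were listed beside them. Set against control, 5 of 22 targets outside glycolysis rose and 10 fell in sh-APP, and 2 rose and 7 fell in anti-Abeta, where the shares of all tested genes called higher and lower were 25.8% and 27.9% in sh-APP and 12.7% and 16.6% in anti-Abeta. With library totals alone these counts were 6 and 8 in sh-APP and 3 and 3 in anti-Abeta, and without control replicate 1 they were 3 and 7, and 0 and 1. Bnip3, a mitophagy receptor, fell to 63.7 ± 3.57 CPM in sh-APP and 77.7 ± 8.08 CPM in anti-Abeta, against 112 ± 2.19 CPM in control libraries (log2 -0.81 ± 0.091 and -0.53 ± 0.091, adjusted p = 1.96e-05 and 0.00306). Kdm3a, a histone demethylase, and Plod2, a collagen hydroxylase, fell in sh-APP by 0.69 and 0.90 (adjusted p = 5.45e-05 and 6.39e-05), whereas P4ha2, a further collagen hydroxylase, rose by 1.26 ± 0.19 (adjusted p = 1.54e-04). Vegfa, the vascular growth factor, was not called (log2 0.21 ± 0.17, adjusted p = 0.303). Over the 22 targets the log2 fold changes of sh-APP against control ran from -0.90 to 1.78, with a median of -0.0083.

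Hif1a transcripts themselves were lower in both arms, at 181 ± 9.55 CPM in sh-APP, 253 ± 26.8 CPM in anti-Abeta and 365 ± 9.36 CPM in control libraries (SD), with -1.01 ± 0.088 in sh-APP (adjusted p = 5.36e-06) and -0.53 ± 0.089 in anti-Abeta (adjusted p = 0.00279) on the log2 scale. Epas1, which encodes the related factor HIF-2 alpha, rose by 0.36 ± 0.081 in sh-APP against control (adjusted p = 0.00214) and had 0.012 ± 0.080 in anti-Abeta (adjusted p = 0.929). Sp1, the GC-box factor, had -0.98 ± 0.097 in sh-APP and -0.51 ± 0.097 in anti-Abeta (adjusted p = 8.90e-06 and 0.00431), and Usf1, an E-box factor, rose by 0.45 ± 0.074 and 0.30 ± 0.074 (adjusted p = 2.73e-04 and 0.0111). The anti-Abeta call of Usf1 missed the threshold without control replicate 1 (0.0907) or control replicate 2 (0.0518). These are transcript levels, and the activity of the factors was not measured.

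**Figure D5:**
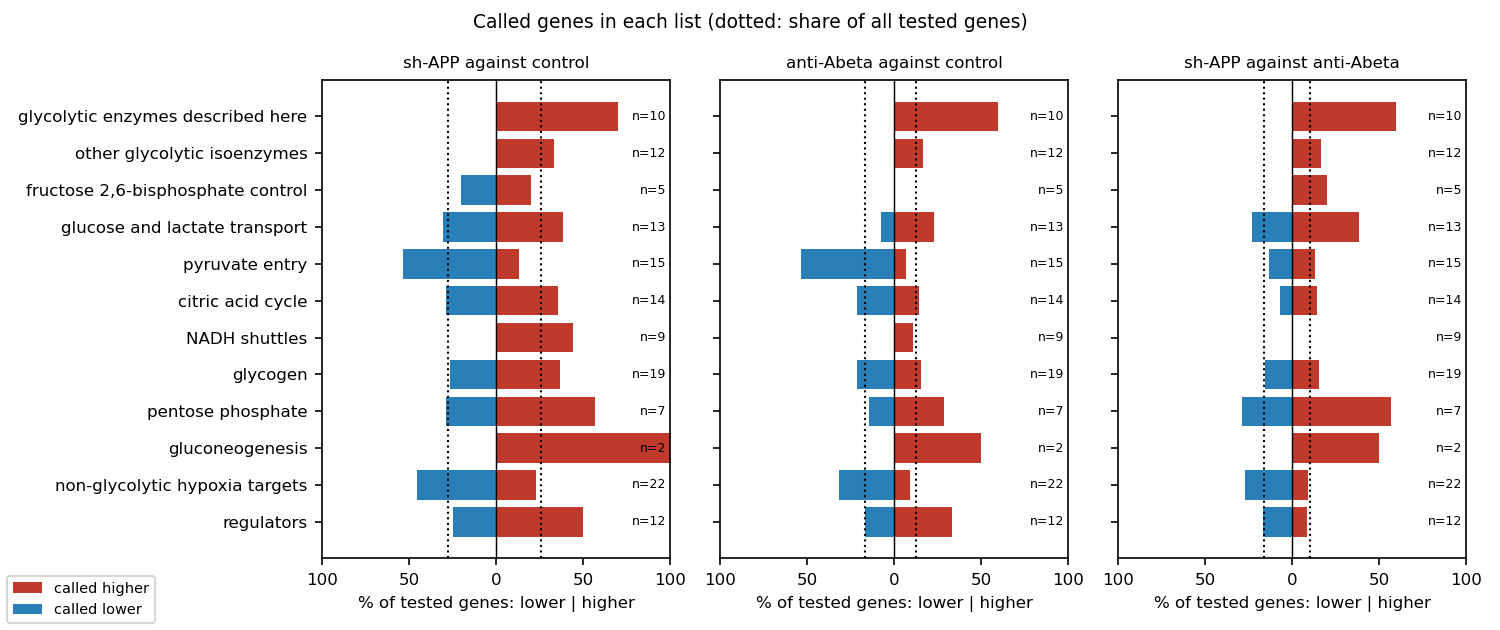
Share of tested genes in each list called higher (right of 0) and lower (left of 0) in the 3 comparisons by edgeR at an adjusted p below 0.05, with the number tested. Dotted lines give the shares over all 14445 tested genes, 25.8% higher and 27.9% lower in sh-APP against control. The glycolytic enzymes have 7, 6 and 6 of 10 higher, and pyruvate entry has 8 of 15 lower against control in both arms.

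The 11 pathway lists together hold 143 genes of the count table, not all of them tested. In sh-APP against control 82 were called, 45 higher and 37 lower, where 53.7% of all tested genes were called. In anti-Abeta against control 47 were called, 21 higher and 26 lower, where 29.2% of all tested genes were called. Library totals without TMM factors moved the median of all genes by 0.20 and 0.15 on the log2 scale and changed these splits to 58 higher and 28 lower in sh-APP and 39 higher and 13 lower in anti-Abeta. Without control replicate 1 the anti-Abeta count was 5, without anti-Abeta replicate 1 it was 28, without anti-Abeta replicate 3 it was 29 and without control replicate 2 it was 25. Of the genes outside the 10 enzymes, 38 of the pathway genes named here were called in sh-APP against control, and 32 of these calls held in each fit without 1 library, with library totals alone and with DESeq2. Of 28 such calls in anti-Abeta against control 5 held throughout, those of Bnip3, Gyg1, Hif1a, Sp1 and Sucla2. Leaving out control replicate 1 ended 23 of these calls, control replicate 2 ended 12 and anti-Abeta replicate 3 ended 9. In sh-APP against anti-Abeta 13 of 26 held throughout. Slc25a11, of the NADH shuttles, is among the 38, and Slc2a10 was left out of these counts. Many of the counted genes were picked for a small p in the same fit, which favours calls that hold.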

How the data were processed

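Raw counts per gene symbol were deposited by the authors as 1 table of 8 libraries. The submitters' processing notes name the rat build rn6, STAR (2.6.0a) and HTSeq (0.11.1), along with Trimmomatic (0.36), FastQC (0.11.7), SAMtools (1.9) and DESeq2 (1.24.0), without roles or settings. All 8 libraries entered 1 edgeR 4.0.16 fit (R 4.3.3), with filterByExpr (minimum count 10, minimum total 15), TMM factors and the robust quasi-likelihood test at an adjusted p of 0.05. The filter kept 14445 genes, which held at least 99.979% of each library's counts. Of the symbols, 26 look like dates and none is named. Fold changes are log2, with SE and 95% intervals from the same fit. The p-values rest on the spread between these libraries, which may be technical, estimated over all 3 groups with information shared across genes. With at least 34250464 counts per library, counting error is small beside the level of each enzyme other than Tpi1. It is not always small beside the spread within a group, as for Pgk1 in control libraries (SD 1.03 CPM on 16552 and 17096 reads). Enzymes, lists and tests were chosen with earlier results of these data known. The naming rule takes all 10 enzymes, up to 4 called genes per list and comparison with the smallest p, a fixed set of pathway genes, and the gene most like each enzyme; part of these are printed. Alternatives were DESeq2 1.42.0, limma-voom 3.58.1, other scalings and filters, a replicate block and leaving out libraries. Gene names, overlaps and promoters come from RefSeq (GRCr8).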

Additional observations from a re-analysis of the deposited data

How the results depend on the processing

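The counts of called enzymes stayed within 1.5 times the reported count in the 11 other settings (scalings, filters, tools, spread, sample set and replicate block). Without 1 library at a time they were 7 to 7 in sh-APP against control, 0 to 6 in anti-Abeta against control and 4 to 6 in sh-APP against anti-Abeta. Over all genes the counts without 1 library were 5971 to 7978, 464 to 4775 and 2219 to 3570, and over the 11 pathway lists 63 to 82, 5 to 54 and 24 to 40. With library totals alone, 5174 genes were called higher and 3091 lower in sh-APP against control, and 3590 higher and 1417 lower in anti-Abeta against control. With TMM factors the splits were 3723 and 4027, and 1832 and 2391. A fit that leaves out 1 control library assumes that the other one varies like the other groups. Signs turned for enzymes that were not called. Ldha in sh-APP against control became 0.034 with upper-quartile factors and 0.15 with library totals, and spanned -0.13 to 0.056 without 1 library. In anti-Abeta against control it spanned -0.059 to 0.13 without 1 library. Pgk1 became 0.067 in sh-APP and 0.0097 in anti-Abeta with library totals, and between the arms it spanned -0.015 to 0.027 without 1 library. Pgam1 became 0.14 in both arms with library totals. In anti-Abeta against control the values without 1 library spanned -0.032 to 0.013 for Pgam1, -0.050 to 0.077 for Pfkfb3, -0.060 to 0.24 for Vegfa, -0.027 to 0.027 for Epas1 and -0.13 to 0.038 for the log2 ratio of Aldoc to Aldoa, and Epas1 became -0.0047 with DESeq2. The cause of these changes was not tested. Whether the replicate numbers pair the samples is not known. Deviations of same-numbered libraries from their group means correlated at -0.011 to 0.11. With 2 or 3 libraries a group, deviations within a group depend on each other, so these values cannot decide it. With the replicate block, 7, 6 and 6 enzymes and 7328, 3480 and 3675 genes were called, in the order of comparisons above. Tpi1 had at most 16 reads per library, too few for a usable level, and the cause was not tested.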

Other observations

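Other lists next to glycolysis held few genes. Of 9 genes for shuttling NADH equivalents into mitochondria 4 rose in sh-APP against control, beside 25.8% of all tested genes. In anti-Abeta 1 of the 9 rose, beside 12.7% of all tested genes. With library totals alone 5 rose in each arm, so these counts depend on the scaling. The median log2 fold change of the 9 in sh-APP was 0.11, and 0.093 without control replicate 1. Slc25a12, the brain aspartate-glutamate carrier, had 0.35 ± 0.11 in sh-APP and 0.35 ± 0.11 in anti-Abeta on the log2 scale (edgeR adjusted p = 0.0205 and 0.0359). Without control replicate 1 these became 0.30 and 0.28 (adjusted p = 0.133 and 0.238). Of 7 genes listed for gluconeogenesis 2 had enough counts to be tested. Pck2, the mitochondrial PEP carboxykinase, averaged 19.5 ± 3.91 CPM in sh-APP, 12.7 ± 1.92 CPM in anti-Abeta and 9.22 ± 0.132 CPM in control libraries (SD, n = 3, 3 and 2) and rose by 1.08 ± 0.18 in sh-APP against control (adjusted p = 3.36e-04). G6pc3, a widely expressed glucose 6-phosphatase, rose by 0.50 ± 0.089 (adjusted p = 4.97e-04).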
